A study of Glycine max with 2 samples.

Results

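Ion pumps, channels and ion transporters were examined in leaf RNA of soybean (Glycine max). They were the rows whose description named a calcium-transporting ATPase, a plasma membrane or vacuolar ATPase, potassium, a cation (as a whole word), a phosphate, sulfate, zinc or magnesium transporter, a chloride channel, a cyclic nucleotide-gated channel or an aquaporin. This gave 35 of 2413 listed transcripts at 50 days after sowing, from 30 genes, and 37 of 2471 at 95 days, from 27 genes. Together they were 58 different transcripts of 44 genes, out of 4096 transcripts of 3358 genes. No plasma membrane or vacuolar proton ATPase and no row described as a zinc transporter was listed at either age. Aquaporins carry water or small neutral solutes rather than ions, and 1 member carries glycerol 3-phosphate.

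The study compared soybean plants that senesce early with plants that senesce late, grown in a greenhouse under normal conditions, and asked which genes differ between them at each age. Each of the 2 samples is a table by the authors that sets 1 library, B, against another, A. Which letter stands for the early type is not stated in the labels or column headers, nor whether a letter means the same type at both ages, so the libraries are called type B and type A. The deposited files are named with the early type before the late, but nothing ties that order to the letters, and it was not used. There are no replicates, so each p-value of the authors sets a library against a library and says nothing on the spread among plants.

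Values are normalised reads, meaning the deposited value minus the 1 that had been added to it. They are not divided by transcript length, so levels are compared between libraries and not between genes. Folds are those of the higher over the lower library. Against a library with no read, a fold is given as at least so much, computed with 3 reads there; other folds carry an exact (Clopper-Pearson) 95% interval. Bounds and intervals cover counting error only. Each row is a single isoform, named by the number after the last point of its identifier, and each table holds only rows with an unadjusted p under 0.05. Members that did not differ are therefore unseen, and a gene's full level, unlisted isoforms included, is unknown. Library depth is unknown for the same reason. Tissue markers could be checked only in part. Of the leaf markers, 3 chlorophyll a-b binding transcripts were listed at 50 days, all with more reads in A (170.0 in B against 4033 in A when summed), and none at 95 days, and no RuBisCO small chain was listed at either age. Of the root and nodule markers, leghemoglobin was not listed, and transcripts with nodulin in their names numbered 2 in B and 1 in A at 50 days and 1, in A, at 95 days.

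Ion transport proteins set the mineral balance of leaf cells. P-type pumps and proton-coupled exchangers move calcium out of the cytosol, cyclic nucleotide-gated channels let cations in, and potassium channels and KUP-type transporters set potassium and turgor. Phosphate and sulfate carriers take up these nutrients and move them between compartments and tissues, and ageing leaves export both, with potassium, to growing organs and seeds.

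Members lay on both sides at both ages. At 50 days 16 lay in B (had more reads there) and 19 in A, so that 45.7% lay in B, against 39.2% of all listed transcripts. At 95 days 16 lay in B and 21 in A, 43.2% in B against 53.3% of all listed transcripts. Many were seen in a single library: 22 of 35 had no read in the lower library at 50 days (62.9%, against 70.5% of all rows) and 32 of 37 at 95 days (86.5% against 75.3%). The middle log2 ratio (median, B over A) was, from the authors' deposited table, -4.11 for members and -5.29 for all rows at 50 days, and -5.39 for members and 4.52 for all rows at 95 days. No listed member had a ratio near 0, the smallest in size being 3.72 at 50 days and 4.16 at 95 days. Only rows with an unadjusted p under 0.05 are listed, members or not, which leaves out small ratios. A median therefore falls in 1 of 2 separate clouds and says little beyond the split. A first isoform (suffix 1) was listed in 34.3% of member rows at 50 days and 24.3% at 95 days, against 41.6% and 40.1% of all rows.

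A member is called where the authors' adjusted p was under 0.05 and the log2 ratio at least 1 in size. At 50 days 3 members were called, 2 with more in B and 1 with more in A. Over all rows 4.64% were called, 1.45% with more in B and 3.19% with more in A. At 95 days 1 member was called, with more in B. The background was 1.5% called, 0.728% with more in B and 0.769% with more in A. With 3 and 1 members called, the counts are too small to set a share of the members apart from these backgrounds. The called ones were a plasma membrane calcium pump and 2 carriers that match the same Arabidopsis mitochondrial phosphate carrier.

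**Figure D1:**
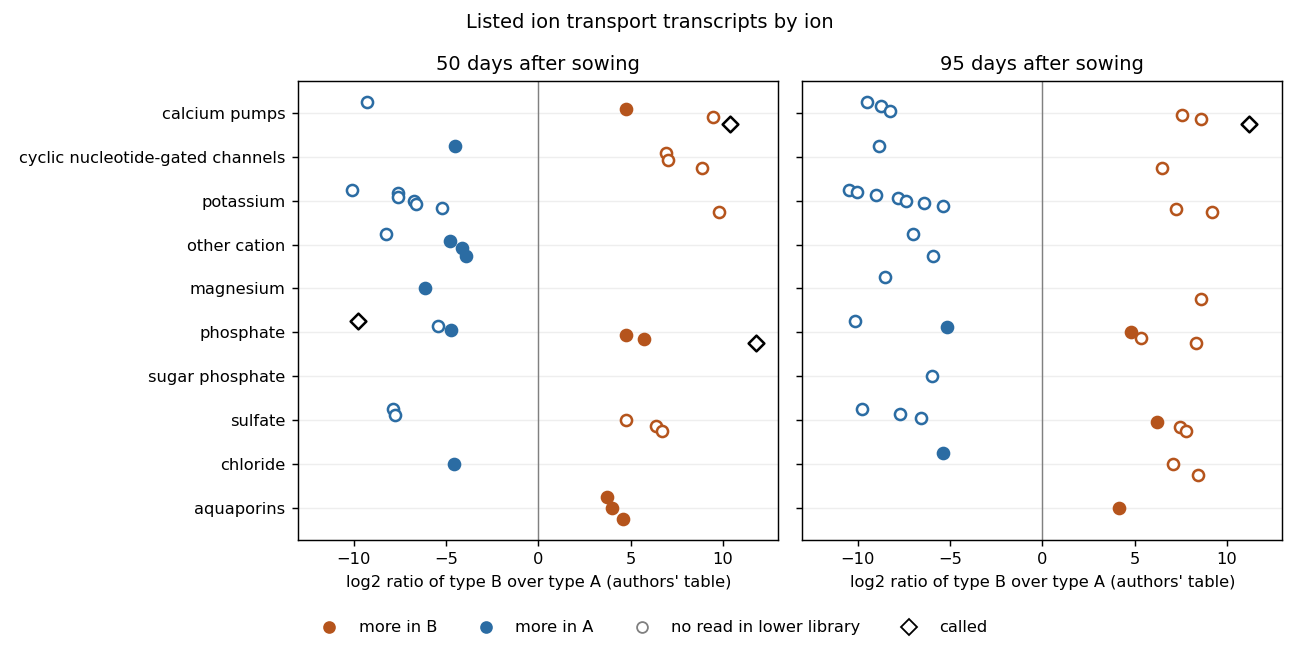
The authors' log2 ratio, type B over type A (horizontal axis) for the listed members at 50 days (left) and 95 days (right), 1 symbol per transcript, by ion. Open symbols had no read in the lower library, and diamonds with a black edge, all of them open, were called. Other cations and potassium lie mostly left of 0 (more in A), and aquaporins right of it (more in B).

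Calcium pumps held the member called at both ages. Glyma.17G057800.3, a plasma membrane calcium ATPase matched to Arabidopsis ACA10, an autoinhibited pump that expels calcium from the cytosol, had 1326 normalised reads in type B against none in type A at 50 days. At 95 days it had 2305 in B and again none in A. It was thus seen in B alone at both ages, at least 551-fold and 617-fold higher there, with adjusted p of 0.0297 at 50 days and 0.0425 at 95 days in the authors' deposited table. Another isoform of that gene, Glyma.17G057800.4, had none in B against 300.2 in A at 95 days. Summed over these listed isoforms, the gene had 2305 in B against 300.2 in A, so B remained the higher library in the sum.

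The endoplasmic reticulum-type calcium ATPase Glyma.16G022200, which loads calcium into the endoplasmic reticulum, was divided by isoform in the same way at both ages. Isoform Glyma.16G022200.1 had none in B against 624 in A at 50 days, and none in B against 721 in A at 95 days. Isoform Glyma.16G022200.2 had 702 in B against none in A at 50 days, and 382 in B against none in A at 95 days. Each isoform was therefore read in 1 library only, and in the library of the same letter at both ages. Isoform 1 had at least 222 times (50 days) and 219.7 times (95 days) the reads in A, and isoform 2 at least 292 times (50 days) and 102 times (95 days) the reads in B. The sums over the listed isoforms were 702 in B against 624 in A at 50 days (a ratio of 1.12), and 382 in B against 721 in A at 95 days (0.529). Neither isoform was called; the nearest was Glyma.16G022200.2 at 50 days, with an adjusted p of 0.0638 in the authors' deposited table.

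The remaining calcium pumps, described as plasma membrane type, were listed at a single age. Glyma.09G061200.2, matched to ACA8, had 518 in B against 18.5 in A at 50 days, 28.1-fold higher (18.5 to 44.7). At 95 days Glyma.07G004300.2, matched to ACA9, had 191 in B against none in A, and Glyma.03G134200.2, matched to ACA11, a pump of the vacuole in Arabidopsis, had none in B against 426 in A. In all, pumps divided 3 in B and 1 in A at 50 days and 3 and 3 at 95 days.

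Cyclic nucleotide-gated channels, cation channels opened by cyclic nucleotides and linked to calcium entry in Arabidopsis, also lay mainly in B at 50 days. Glyma.07G056400.2 had 467 in B, Glyma.06G126600.2 128 and Glyma.12G152300.3 120.2, all with none in A. The exception was Glyma.16G218000.3, matched to Arabidopsis CNGC20, with 82.6 in B against 1867 in A, 22.6-fold higher in A (18.3 to 28.3). At 95 days both listed transcripts came from 1 gene and lay on opposite sides: Glyma.19G255500.1 had 88.6 in B against none in A, and Glyma.19G255500.2 had none in B against 463 in A. None of these was called at either age.

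Potassium was the ion with the most listed transcripts, and most of them lay in A. At 50 days 1 lay in B and 6 in A, or 14.3% in B against 39.2% of all listed transcripts. At 95 days 2 lay in B and 7 in A, or 22.2% against 53.3%. Each time they came from 5 genes, so several rows were isoforms of the same gene. Each time all had no read in the lower library, against 70.5% of all rows at 50 days and 75.3% at 95 days. None was called. Potassium transporter 2-like Glyma.04G221600, matched to Arabidopsis KUP2, a proton-coupled potassium carrier, gave 5 of these rows. Isoform Glyma.04G221600.8 had none in B against 1069.9 in A at 50 days, and none in B against 520.6 in A at 95 days, at least 379.8-fold and 159-fold higher in A. Its isoforms Glyma.04G221600.4 at 50 days, with 107 in A, and Glyma.04G221600.7 and Glyma.04G221600.5 at 95 days, with 1389.9 and 83.4 in A, also had none in B. All listed isoforms of this gene thus lay in A at both ages. A second gene of the same description, Glyma.06G143800.4, lay the other way, with 875 in B against none in A at 50 days, at least 363-fold higher. How counting divided reads among such similar copies and their isoforms was not given.

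Other potassium transporters lay on both sides. Potassium transporter 10 Glyma.05G131800, matched to Arabidopsis KUP11, had 1 isoform that changed sides: Glyma.05G131800.3 had none in B against 194 in A at 50 days, but 148 in B against none in A at 95 days. Isoform Glyma.05G131800.4 kept its side, with none in B against 190.2 in A at 50 days and none in B against 167 in A at 95 days. Isoform Glyma.05G131800.2 was listed at 95 days alone, with none in B against 225 in A. At that age Glyma.11G169900.4, a potassium transporter 1-like carrier, had none in B against 1037 in A, at least 316-fold higher in A, and Glyma.05G117500.2, matched to KUP7, had 584 in B against none in A, at least 156-fold higher in B.

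Both listed potassium channels had reads in A only. KAT1-like Glyma.15G094600.1, an inward channel known from Arabidopsis guard cells, had none in B against 95.5 in A at 50 days, and none in B against 39.9 in A at 95 days. AKT2-like Glyma.08G187600.1, a channel of the phloem in Arabidopsis, had none in B against 36.1 in A at 50 days. Among guard cell markers, searched by name, only KAT1 was found, and it is the member itself. No row named SLAC1 or OST1 was listed at either age, and other names of these genes were not searched. Among vascular markers, 8 transcripts of SWEET sugar exporters were listed at 50 days, including isoforms of the same gene. Of these, 2 had more in B and 6 in A (1756 in B against 25273 in A when summed), and 1 was called, against 4.64% of all rows. At 95 days 3 were listed, 1 in B and 2 in A (298 in B against 387 in A), with 0 called. SUC2 was not listed. Their part in these results was not tested, and in whole leaves fewer cells of a type and less RNA per cell cannot be told apart.

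The other cation carriers lay in A without exception, 4 transcripts of 3 genes at 50 days and 2 of 2 genes at 95 days, none called. Of all listed transcripts 39.2% lay in B at 50 days and 53.3% at 95 days. These few rows include isoforms of 1 gene. Vacuolar cation/proton exchanger 3, Glyma.07G149600, matched to Arabidopsis CAX3, which loads calcium into the vacuole against protons, was listed as 2 isoforms at 50 days. Glyma.07G149600.1 had 221 in B against 3830.3 in A, 17.4-fold higher in A (15.2 to 19.9), and Glyma.07G149600.4 had 129 in B against 1962 in A, 15.3-fold (12.8 to 18.3). Reads were present in both libraries here, and the isoforms had overlapping intervals. At 95 days only Glyma.07G149600.4 was listed, with none in B against 59.8 in A. Also in A at 50 days were a stress-gated calcium-permeable channel of the OSCA family, Glyma.17G010500.2, with 8.45 in B against 262 in A, and a cation efflux protein, Glyma.07G049200.2, matched to an Arabidopsis zinc carrier (MTPA2), with none in B against 303 in A. At 95 days the cation/proton antiporter Glyma.11G019900.2, matched to CHX18, had none in B against 129.5 in A.

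Magnesium transporters were few. NIPA6-like Glyma.14G033700.2 had 4.69 in B against 394 in A at 50 days, 83.9-fold higher in A (35.7 to 260), an interval that rests on few reads in B. Members of the MRS2 family, which carry magnesium across cell membranes, lay on opposite sides at 95 days. Glyma.03G159400.2 had 377 in B against none in A, and Glyma.15G002700.3 none in B against 364 in A.

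Phosphate held the other called members, both matched to Arabidopsis MPCP3, a carrier that brings phosphate into mitochondria for ATP synthesis. Glyma.19G101100.1 had 3562 in B against none in A at 50 days, at least 1479-fold higher in B, with an adjusted p of 0.0184 in the authors' deposited table. Another isoform of it, Glyma.19G101100.2, had 318 in B against none in A at 95 days. Glyma.16G050000.3, a second gene, had none in B against 872 in A at 50 days, at least 309.7-fold higher in A and called (adjusted p 0.0471 in the authors' deposited table). At 95 days it had none in B against 1142 in A, at least 348-fold higher in A, and its adjusted p in the authors' deposited table, 0.0528, just missed the threshold. A further isoform of this gene, Glyma.16G050000.5, lay in B at 50 days, with 2822 in B against 105 in A, 26.8-fold higher (22.5 to 32.2). The sum over both isoforms was 2822 in B against 978 in A, so the called isoform and the gene's listed sum pointed opposite ways.

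The PHT1 family, proton-coupled carriers that take up phosphate at the plasma membrane, divided by gene. Transcripts matched to Arabidopsis PHT1;4 lay in B: Glyma.20G204100.1 had 744 in B against 12.8 in A at 50 days, 57.9-fold higher (35.4 to 102), and Glyma.10G186400.2 had 1037 in B against 36.1 in A at 95 days, 28.7-fold higher (19.9 to 43.1). Those matched to PHT1;7 lay in A. Glyma.19G164300.1 had 30.0 in B against 816 in A at 50 days, 27.2-fold higher in A (19.1 to 39.9), and 35.0 in B against 1311 in A at 95 days, 37.5-fold (26.4 to 55.1). Glyma.03G162800.2 had none in B against 41.7 in A at 50 days. The PHO1-like exporter Glyma.01G091800.1, of a family that loads phosphate into the xylem in Arabidopsis, had 39.4 in B against none in A at 95 days. A glycerol 3-phosphate carrier, Glyma.12G013200.2, had none in B against 61.0 in A at that age.

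Sulfate transporters were evenly divided, 3 in B and 2 in A at 50 days and 3 and 3 at 95 days, none called. Sulfate transporter 1.3-like Glyma.06G106100.3, of the high-affinity group in Arabidopsis, had none in B against 230.4 in A at 50 days, and none in B against 869 in A at 95 days, when a second isoform, Glyma.06G106100.2, had none in B against 212 in A. Glyma.20G017100.2, a transporter 3.3-like gene, lay in B at both ages, with 80.8 in B at 50 days, 219 in B at 95 days and none in A at either. Another 3.3-like gene, Glyma.07G218900.2, had none in B against 214 in A at 50 days. These listed isoforms thus had their reads in a single library at each listed age.

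Low-affinity sulfate carriers, which in Arabidopsis serve transport within the vasculature, gave the other change of side. Glyma.14G169300.2 had 101 in B against none in A at 50 days, but none in B against 93.4 in A at 95 days, while isoform Glyma.14G169300.1 had 175 in B against none in A at 95 days. Glyma.13G087100.1 had 26.3 in B against none in A at 50 days. Sulfate transporter 2.1-like Glyma.18G019000.1 had 539 in B against 6.23 in A at 95 days, 86.6-fold higher (36.9 to 268).

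Chloride channel proteins of the CLC family, which carry nitrate or chloride across organelle membranes in Arabidopsis, were listed as different genes at each age. CLC-b-like Glyma.16G057600.1 had 51.6 in B against 1223 in A at 50 days, 23.7-fold higher in A (18.1 to 31.6). At 95 days CLC-c-like Glyma.16G208400 was listed as 2 isoforms, Glyma.16G208400.1 with 338 in B against none in A, and Glyma.16G208400.9 with 10.9 in B against 499 in A. CLC-e-like Glyma.14G000500.3 had 135 in B against none in A. None was called.

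Aquaporins, the water channels, all lay in B, and each had reads in both libraries. PIP1-6, Glyma.08G015300.1, of the plasma membrane group, had 2625 in B against 109 in A at 50 days, 24.1-fold higher (20.2 to 28.8). At 95 days it had 11643 in B against 653 in A, 17.8-fold higher (16.3 to 19.5). The others were listed at 50 days: PIP2-2, Glyma.16G155100.1, had 630.1 in B against 39.3 in A, 16.02-fold (12.0 to 21.9), and SIP1-1-like Glyma.06G307000.1, of a group found in the endoplasmic reticulum in Arabidopsis, had 931 in B against 69.8 in A, 13.3-fold (10.7 to 16.8). None was called, their lowest adjusted p in the authors' deposited table being 0.807.

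Of the members, 14 transcripts were listed at both ages. On the same side were 12 of them, 4 in B and 8 in A, and 2 were on opposite sides. Among all 788 transcripts listed at both ages 68.0% kept their side. The 4 in B were PIP1-6, the ACA10-like pump, isoform 2 of the endoplasmic reticulum pump and the sulfate transporter 3.3-like gene. Those that changed side were the isoforms of potassium transporter 10 and of low-affinity sulfate transporter 3 described above.

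**Figure D2:**
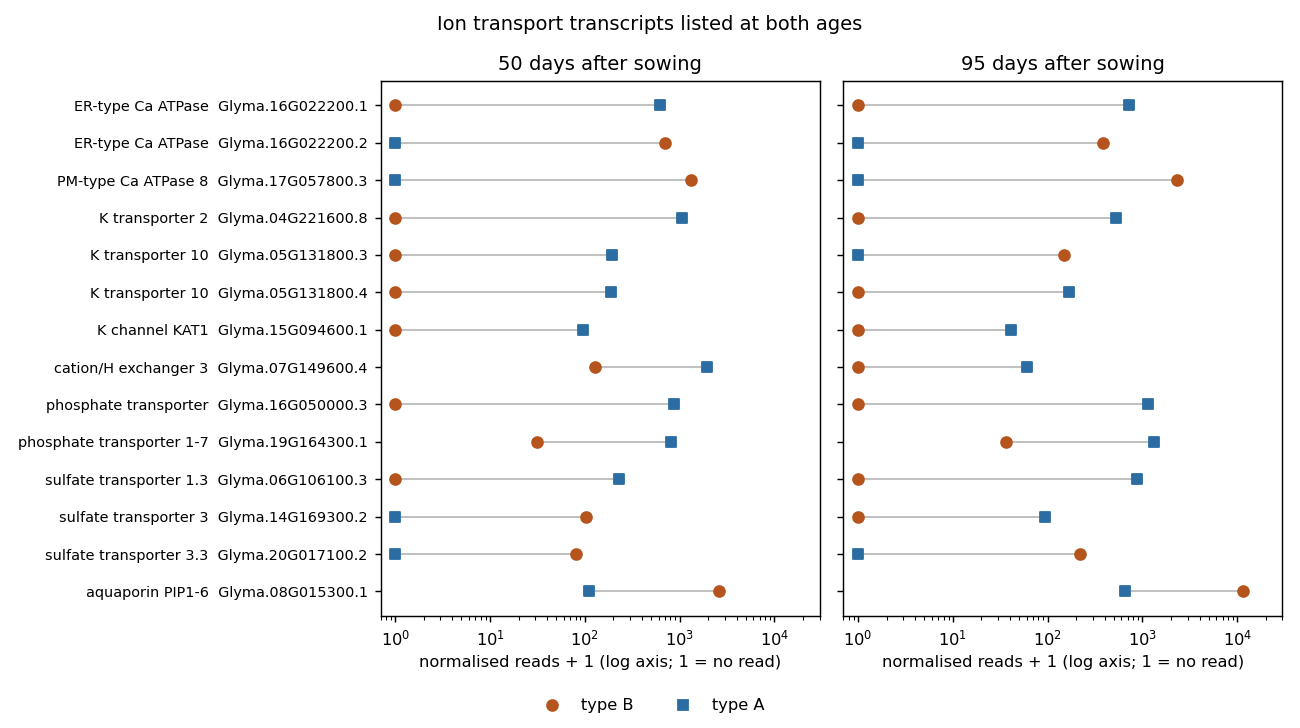
Normalised reads plus 1 (horizontal log axis, 1 meaning no read) in type B (circles) and type A (squares) for the 14 members listed at both ages, at 50 days (left) and 95 days (right). The circle lies right of the square in both panels in 4 rows and left of it in both in 8; Glyma.05G131800.3 and Glyma.14G169300.2 change over.

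Listed isoforms of 1 gene often lay on both sides. At 50 days 5 member genes had at least 2 listed isoforms, and 2 of them, the endoplasmic reticulum calcium pump and the phosphate carrier Glyma.16G050000, had isoforms on both sides. The background was 39.5% of 258 such genes. At 95 days 6 of 8 did, against 51.8% of 280. Besides the calcium pumps these were potassium transporter 10, low-affinity sulfate transporter 3, CLC-c and cyclic nucleotide-gated channel 1. The 2 on 1 side at 95 days were potassium transporter 2 and sulfate transporter 1.3, both in A. For the 6 genes with isoforms on both sides, sums over the listed isoforms at 95 days ranged, as ratios of B over A, from 0.191 in the channel gene Glyma.19G255500 (88.6 in B against 463 in A) to 7.68 in the pump gene Glyma.17G057800. CLC-c had a sum of 349 in B against 499 in A (0.699), and low-affinity sulfate transporter 3, Glyma.14G169300, had 175 in B against 93.4 in A (1.87). A sum over isoforms on opposite sides must lie between them, so these ratios only describe the listed isoforms.

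**Figure D3:**
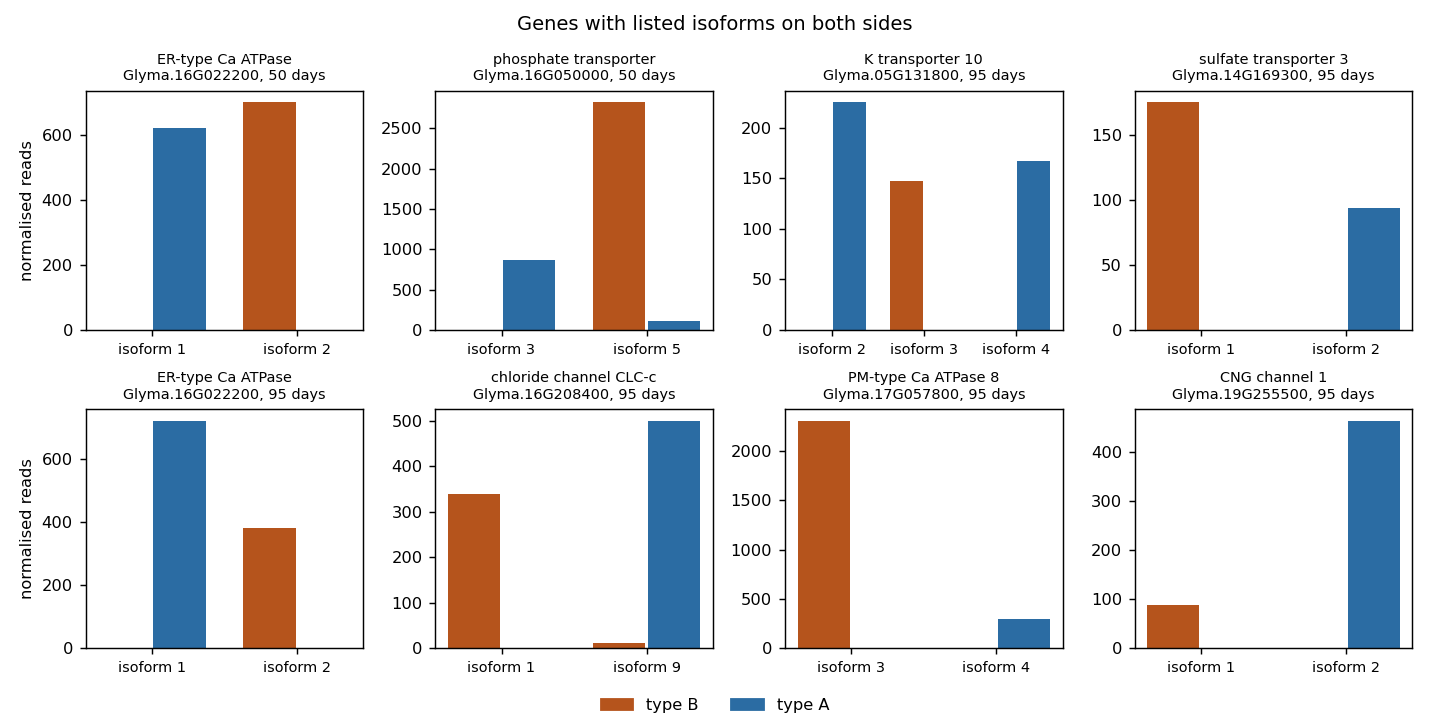
Normalised reads (vertical axis, from 0, its own scale in each panel) of each listed isoform in type B and type A for member genes with isoforms on both sides, at the age named above each panel. In the endoplasmic reticulum calcium pump isoform 1 has reads in A alone and isoform 2 in B alone, at both ages.

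Partners of ion homeostasis outside the transport rows (calcium sensors and their kinases, carriers of nitrogen, boron and metals, glutamate receptor and mechanosensitive channels, lipid flippases, SPX-domain and 14-3-3 proteins) gave 31 transcripts at each age. At 50 days 10 lay in B and 21 in A, or 32.3% in B, and 1 was called, against the shares of all rows given above. At 95 days 16 lay in B and 15 in A, or 51.6% in B, and none was called. Their log2 ratio (B over A, the authors' deposited table) had a median of -5.32 at 50 days and 5.08 at 95 days. For all rows it was -5.29 and 4.52. As with the members, such a median says little beyond the split.

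Boron transporters, which export borate from cells, lay mostly in B at both ages. Glyma.17G088800.1, matched to Arabidopsis BOR2, had 618 in B against none in A at 50 days, at least 257-fold higher and the called one (adjusted p 0.0444 in the authors' deposited table), and 661 in B against 3.74 in A at 95 days. Of the boron transporters 3 of 3 lay in B at 50 days and 3 of 4 at 95 days, the fourth being a second isoform, Glyma.17G088800.2, with none in B against 150.7 in A. Mechanosensitive channels lay in A, 2 of 2 at each age, such as Glyma.06G055400.2 with none in B against 123 in A at 50 days and none in B against 179 in A at 95 days. Of all listed transcripts 39.2% lay in B at 50 days and 53.3% at 95 days, and these classes are few rows. Rows named for calmodulin divided 2 in B and 3 in A at 50 days, and 4 and 4 at 95 days. Lipid flippases divided 2 and 2 at 50 days, and 0 in B and 3 in A at 95 days.

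Of 11 partners listed at both ages 7 kept their side and 4 did not, near the 68.0% of all such transcripts that kept theirs. Glutamate receptor-like channels, linked to calcium signals in Arabidopsis, lay 0 in B and 6 in A at 50 days and 2 in B and 1 in A at 95 days. Different genes made up most of these, such as Glyma.06G305000.1 with 143 in B against 2487 in A at 50 days, and Glyma.16G111700.1 with 983 in B against 11.2 in A at 95 days. The 1 listed at both ages, Glyma.11G087100.2, kept its side, with none in B against 141 in A at 50 days and none in B against 772 in A at 95 days. Ammonium transporters gave Glyma.10G132300.1 with 39.4 in B against 904 in A at 50 days, and Glyma.10G168100.1 with 582 in B against 16.2 in A at 95 days, which are different genes. The SPX-domain membrane protein Glyma.18G228700, of a family that senses or stores phosphate, had isoforms in A at 50 days, Glyma.18G228700.2 with none in B against 323 in A, and another isoform in B at 95 days, Glyma.18G228700.1 with 1499.9 in B against 16.2 in A. CBL-interacting kinases, which act with calcium sensors, divided 1 in B and 2 in A at both ages. They included CIPK1-like Glyma.09G079400.4, with 41.3 in B against 3292 in A at 50 days, and CIPK14-like Glyma.09G276600.1, with 564 in B against 13.7 in A at 95 days. Glyma.02G234800.1, a CIPK10-like kinase listed at both ages, stayed in A, with 6.57 in B against 295 in A at 50 days and none in B against 132 in A at 95 days. The nitrate transporter 2.5-like gene Glyma.08G284000.1 changed side. It had 4.69 in B against 227 in A at 50 days, and 48.1 in B against none in A at 95 days. So did the CBL-interacting kinase Glyma.11G235300.2. Its reads were 123 in B against none in A at 50 days, and none in B against 111 in A at 95 days. The others were isoforms of a calmodulin-binding kinase. Glyma.17G109600.4 had 1.88 in B against 448 in A at 50 days, and 702 in B against none in A at 95 days. Glyma.17G109600.5 had none in B against 416 in A at 50 days, and 737 in B against none in A at 95 days.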

How the data were processed

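Per the labels' protocols, leaf RNA libraries were run on an Illumina NovaSeq. The submitters' processing notes name Trimmomatic 0.36 for trimming and DESeq 1.36.0 for the comparison; for alignment, counting and genome build, tools and versions were not stated. The values for A and B deposited by the authors are a signal that is never negative. Less 1, all of them (100%) were whole multiples, to within 0.01, of a column's own smallest unit, and each was taken as 1 library's reads divided by a size factor (1.06 for B and 1.25 for A at 50 days, 0.914 for B and 0.803 for A at 95 days). Whether these are counted or estimated reads is not known. The log2 ratio deposited by the authors is B over A with the added 1 included. Raw and adjusted p-values, deposited by the authors, were used as they stand; only p under 0.05 is listed, so depth is unknown. At 50 days 1 repeated row was counted once.

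No new test was run, since there is 1 library per type and age; members were described by counts, medians, folds with 95% intervals and the authors' calls. The members, lists and naming rule were chosen with earlier results of these data known. The rule names called members, up to 4 per ion, side and age by reads, those listed at both ages and genes with isoforms on both sides, which takes in 34 of 35 members at 50 days and 36 of 37 at 95 days; the 2 others (Glyma.08G187600.1 and Glyma.04G221600.5) were added after their values were seen. In the partner list up to 3 per class and age were eligible, and those printed were picked from these, with 1 exception. The glutamate receptor Glyma.11G087100.2 was eligible at 95 days (rank 2), and its value at 50 days (rank 6) was printed beside it. The RefSeq table supplied held none of the 44 member genes by identifier, so no coordinates or sequences are given. Recovery of reads and the intervals were checked on simulated counts that held counting error only. The lower bounds against no read were not checked in this way. Software was Python 3.11.15 with scipy 1.17.1, numpy 2.4.6 and pandas 2.3.3, and figures were drawn with matplotlib 3.10.9.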

Additional observations from a re-analysis of the deposited data

Results flagged for a closer look

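The ratio of B over A had opposite signs at the 2 ages in 2 members, each seen in 1 library only at each age. For potassium transporter 10 isoform Glyma.05G131800.3 the log2 ratio in the authors' deposited table was -7.61 at 50 days and 7.22 at 95 days. For low-affinity sulfate transporter 3 isoform Glyma.14G169300.2 the authors' deposited table gave 6.68 at 50 days and -6.56 at 95 days. The difference between the ages was not tested, since there is 1 library per type and age, and neither member was called at either age.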

How the results depend on the processing

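Counts of members on each side stayed within 1.5 times under most alternatives, but which side held more did not always hold. With 1 transcript per gene, 16 lay in B and 14 in A at 50 days. Restricting to rows with reads in both libraries left 6 in B and 7 in A at 50 days, and 3 and 2 at 95 days. Matching cation inside other words, which adds rows with the words replication, modification or detoxification, gave 28 in B and 24 in A at 95 days. A wider list took in proton pumps, nitrate, ammonium, copper and metal transporters and glutamate receptors. It gave 16 in B and 28 in A at 50 days, and 21 and 23 at 95 days. The share in B at 50 days then lay below the 39.2% of all rows, whereas that of the members lay above it. No member was called at either age at an adjusted p under 0.01 or with reads in both libraries, and 2 were called at 95 days under 0.1. The members' median log2 ratio turned positive at 50 days when centred on all rows (1.18) and with 1 transcript per gene (3.84). At 95 days it turned positive with cation matched inside words (4.67) and with reads in both libraries (4.16), and was -4.22 with 3 reads in place of 0 and -9.91 when centred on all rows. With rows in 2 clouds on either side of 0, small changes of membership move it across; the direction was the same with equal size factors and with 1 read added in each member named by the rule, while the 2 added later were not run. Depth limits each value to its own reads. No paired analysis was possible because each type has 1 library per age and the labels carry no replicate numbers.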
